A study of Mus musculus with 2 samples.

Results

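The subunits of the proteasome were examined in RNA from tumours grown in mice with or without Mtdh. The proteasome is the protease that degrades ubiquitin-tagged proteins in every cell and makes most of the peptides shown on MHC class I. Its barrel, the 20S core, is built of rings of alpha (Psma) and beta (Psmb) subunits, and the beta subunits Psmb5, Psmb6 and Psmb7 carry the active sites. Interferon gamma is known to induce Psmb8, Psmb9 and Psmb10, which take the places of those subunits in the immunoproteasome, and Psme1 and Psme2, which form the PA28 cap. The 19S cap (Psmc ATPases and Psmd subunits) recognises and unfolds ubiquitin-tagged proteins. The members were all genes of the deposited table whose symbol is Psma, Psmb, Psmc, Psmd or Psme followed by a number, which gave 42 of the 12707 listed genes.

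The data are 2 RNA-seq libraries of live CD45-negative cells sorted from Py8119 tumours. Py8119 is a mouse mammary tumour cell line with wild-type Mtdh, and the tumours grew in hosts labelled Mtdh wild type (WT host) or Mtdh knock out (KO host). Mtdh (metadherin) promotes the growth and spread of mammary tumours, and the design asks how the tumour cells differ when the host lacks it. The labels do not give the Mtdh allele, the age or sex of the hosts, or how many tumours went into a library. The sort removes CD45-positive leukocytes and does not separate tumour cells from other host cells, so a result cannot be assigned to a cell type, and in bulk RNA fewer cells of a type and less RNA per cell cannot be told apart. There was 1 library per host genotype, so there is no replicate error and no test, and each difference below describes this pair of libraries.

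The deposited unit is log2(FPKM + 1), where FPKM was scaled by the genomic span of each gene with its introns. Reads were recovered from the steps between low values, 26069371 for the WT host and 23381849 for the KO host. RPM below means recovered reads per 1000000, a ratio is RPM in the KO host over RPM in the WT host, and its 95% interval is an exact conditional binomial interval that covers counting error only. To compare levels between genes, RPM was divided by the length of the transcript with the longest coding sequence (RPM per kilobase). Of the genes used as tumour cell markers, Vim, S100a4, Lgals1, Krt8 and Krt18 were well expressed, with Vim at 82646 and 67960 reads. The epithelial genes Cdh1 and Epcam were low, with 134 and 201 reads and 55 and 151 reads. The ratios lay on both sides of 1: Epcam 3.06, Cdh1 1.67, Krt18 1.57 and Krt8 1.42, against S100a4 0.945, Vim 0.917 and Lgals1 0.633. Whether these genes mark only tumour cells here was not tested. Mtdh itself was at log2(FPKM + 1) 4.19 and 4.06; the tumour cells carry it in both hosts, so its level does not check the host label.

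The immunoproteasome did not move as a block. Psmb8 and Psmb9 were 4.34-fold and 2.07-fold higher in the KO host, Psme2 was 1.34-fold higher, and Psmb10 and Psme1 had ratios of 1.03 and 1.07. For scale, 8.9% of all genes with 100 or more reads were at least 2-fold higher and 12.0% at least 2-fold lower. Among genes with 100 to under 1000 reads, where Psmb8 and Psmb9 lie, the shares were 18.4% and 24.8%. Psmb8 and Psmb9 lie in the MHC region of chromosome 17 next to Tap1 and Tap2, which encode the transporter that carries peptides into the endoplasmic reticulum. Psmb10 lies on chromosome 8, and Psme1 and Psme2 lie near each other on chromosome 14.

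Promoter windows are shown for the 2 inducible subunits that were over 2-fold higher and for the constitutive counterparts they replace, since the balance within these pairs changed most. They come from RefSeq on GRCm38.p6, another build than the mm39 of the data, and run from 250 bases before the start site to 50 after it, 5′ to 3′ on the strand of the gene. Capitals mark matches to 1 of 2 short motifs searched on both strands: GAAANNGAA, a core of the elements bound by interferon regulatory factors, and TGACNNNGC, the core of the antioxidant element bound by Nfe2l1, the factor known to drive constitutive proteasome genes.
Psmb8 (chr17:34197945-34198244, plus strand): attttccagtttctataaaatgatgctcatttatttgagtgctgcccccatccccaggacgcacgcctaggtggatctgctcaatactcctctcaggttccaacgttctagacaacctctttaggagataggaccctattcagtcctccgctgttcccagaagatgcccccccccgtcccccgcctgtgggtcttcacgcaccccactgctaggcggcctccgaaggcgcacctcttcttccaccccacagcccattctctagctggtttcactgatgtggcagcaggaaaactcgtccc
Psmb9 (chr17:34187281-34187580, minus strand): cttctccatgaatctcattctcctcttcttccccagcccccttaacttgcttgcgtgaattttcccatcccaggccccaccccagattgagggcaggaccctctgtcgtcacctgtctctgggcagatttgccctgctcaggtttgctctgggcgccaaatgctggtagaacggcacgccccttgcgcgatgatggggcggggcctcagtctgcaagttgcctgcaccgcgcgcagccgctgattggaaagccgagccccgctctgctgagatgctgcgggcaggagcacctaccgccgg
Psmb5 (chr14:54617946-54618245, minus strand): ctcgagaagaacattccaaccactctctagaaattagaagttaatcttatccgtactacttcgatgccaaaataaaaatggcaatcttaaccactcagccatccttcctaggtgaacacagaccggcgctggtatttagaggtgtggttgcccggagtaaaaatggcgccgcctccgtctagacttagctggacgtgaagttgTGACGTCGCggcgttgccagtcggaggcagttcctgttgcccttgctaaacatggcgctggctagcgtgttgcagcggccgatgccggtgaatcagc
Psmb6 (chr11:70525107-70525406, plus strand): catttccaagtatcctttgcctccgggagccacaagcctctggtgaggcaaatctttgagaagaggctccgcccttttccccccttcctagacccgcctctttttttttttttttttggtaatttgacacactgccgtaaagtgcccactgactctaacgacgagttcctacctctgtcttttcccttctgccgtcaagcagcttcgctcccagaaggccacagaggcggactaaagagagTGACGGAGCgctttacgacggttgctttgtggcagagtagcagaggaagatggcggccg

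The Psmb5 and Psmb6 windows hold a match to the antioxidant core, starting 47 and 9 bases before the start site. The Psmb8 and Psmb9 windows have neither of these motifs, which says nothing about sequence outside the windows. The Psmb9 window is shared: Tap1 starts 226 bases away on the opposite strand, and 275 of the 300 bases belong to the windows of both genes. The RefSeq starts of Psmb9 and Tap1 leave a gap, whereas the listed spans of the 2 genes overlap by 212 bases. The Psmb9 window therefore does not surround the start of the listed span. For Psmb8 the match between the RefSeq start and the listed span was not checked, so its window may miss the listed start too. Of the 42 members, 36 had a window. The antioxidant core was found in 6 of these 36 genes (16.7%), namely Psmb5, Psmb6, Psmc6, Psmd12, Psmd9 and Psme4, against 12.4% of all 32851 windows. The interferon regulatory factor core was in 6 (16.7%), Psmb3, Psmb4, Psmc2, Psmd4, Psmd9 and Psme1, against 8.56%. The member shares count genes and the shares over all count windows. Counted by window, each core was in 6 of the 39 member windows. These are matches of letters, not binding sites, and some genes have more than 1 window.

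Psmb8 encodes the inducible subunit with chymotrypsin-like activity (beta 5i). The gene (ENSMUSG00000024338, plus strand of chromosome 17 in mm39, 34416695 to 34420429) had a deposited log2(FPKM + 1) of 1.14 in the WT host and 2.63 in the KO host, or FPKM 1.20 and 5.21. The reads were 117 and 455, a ratio of 4.34 (95% interval 3.53 to 5.36). This was the highest ratio of the 42 members.

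Psmb9 (beta 1i; ENSMUSG00000096727, chromosome 17, 34400961 to 34406739, minus strand) was at FPKM 0.850 and 1.76, with 128 and 238 reads, a ratio of 2.07 (95% interval 1.67 to 2.59). Its log2(FPKM + 1) difference was 0.58, since the added 1 hides part of the change at values this low. The first 212 bases of its listed span, counted from its 5′ end and 3.67% of it, overlap Tap1, and strand handling is not given in the sources used here, so reads there cannot be assigned to 1 of the genes with certainty. Tap1 itself had 814 and 2651 reads, a ratio of 3.63 (95% interval 3.36 to 3.93), and Tap2, next to Psmb8, had 752 and 1799 reads, a ratio of 2.67. All 4 genes of this stretch were higher in the KO host. Of all genes with 100 or more reads, 45.5% had a ratio above 1.

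Psmb10 (beta 2i; ENSMUSG00000031897, chromosome 8, 106662367 to 106665077, minus strand) stood apart from the other inducible catalytic subunits. It was at FPKM 16.4 and 16.8, with 1158 and 1067 reads, a ratio of 1.03 (95% interval 0.944 to 1.12). Its level per transcript length was also the highest of the inducible catalytic subunits, at 33.9 and 34.8 RPM per kilobase, against 2.76 and 12.0 for Psmb8 and 3.63 and 7.53 for Psmb9. Psmb8 was thus the lowest of them in the WT host, with Psmb9 close to it on 117 and 128 reads, and Psmb9 was the lowest in the KO host.

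**Figure D1:**
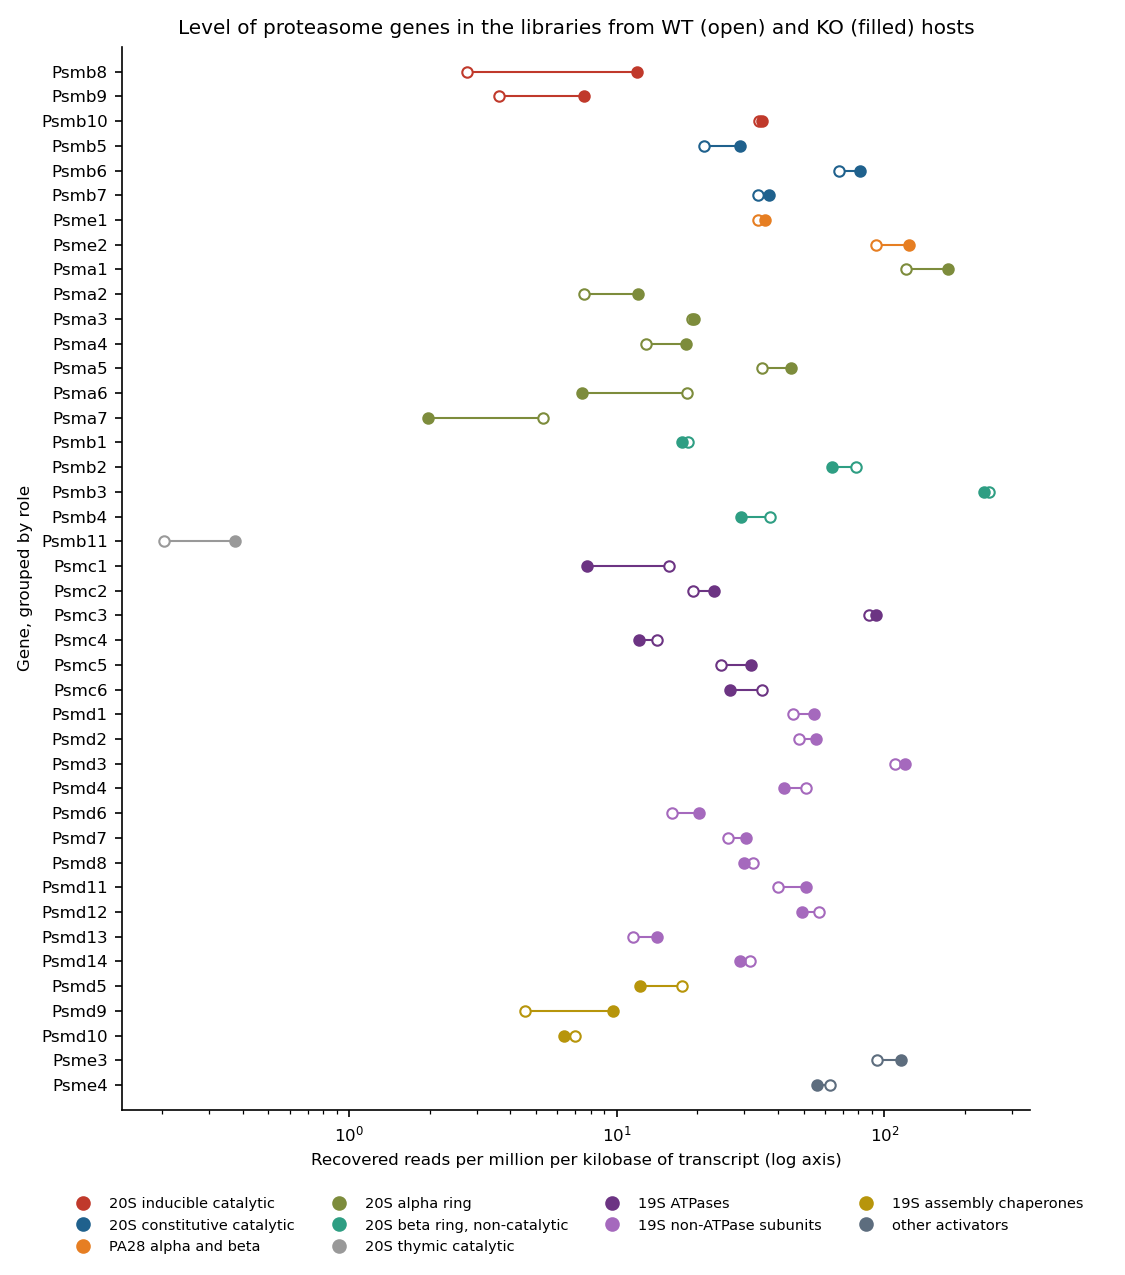
Level of each of the 42 proteasome genes in RPM per kilobase of transcript (log axis), with 1 open point for the WT host library, 1 filled point for the KO host library, a line joining them, and colours for the role of the subunit. Psmb8 and Psmb9 sit among the lowest members in the WT host, at 2.76 and 3.63, and move right, while Psmb10 stays at 33.9 and 34.8.

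The constitutive catalytic subunits were also slightly higher in the KO host. Psmb5, which Psmb8 replaces, had 494.9 and 606.0 reads, a ratio of 1.37 (95% interval 1.21 to 1.54). Psmb6, replaced by Psmb9, had 1405 and 1507 reads, a ratio of 1.20 (95% interval 1.11 to 1.29). Psmb7, replaced by Psmb10, had 1022 and 1006 reads, a ratio of 1.10 with a 95% interval that reaches up to 1.20 and only just leaves out 1. Its span overlaps Nek6 over 11.7%. Of all genes with 100 or more reads, 20.4%, 28.4% and 35.8% had a ratio as high as Psmb5, Psmb6 and Psmb7. The order of the 3 ratios is that of their inducible partners, over a narrower range, and the intervals of neighbours in that order overlap.

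The balance within a pair does not depend on the library totals. Psmb8 took 19.1% of the reads of Psmb8 and Psmb5 together in the WT host (exact binomial 95% interval 16.1% to 22.5%) and 42.9% in the KO host (39.9% to 45.9%). The Psmb8 to Psmb5 ratio was thus 3.18-fold higher (95% interval 2.50 to 4.06), and per transcript length it was 0.131 and 0.415, so Psmb5 was the more abundant RNA in both libraries. Psmb9 took 8.35% (7.01% to 9.85%) and 13.6% (12.1% to 15.3%) of its pair with Psmb6, a change of 1.73-fold (95% interval 1.37 to 2.19). Psmb10 took 53.1% (51.0% to 55.2%) and 51.5% (49.3% to 53.6%) of its pair with Psmb7, a change of 0.936 (95% interval 0.828 to 1.06). The intervals of the 2 libraries do not overlap for the Psmb8 and Psmb9 pairs and do for the Psmb10 pair. They cover counting error only. The thymic catalytic subunit Psmb11, which is made in thymic epithelium, had 22.4 and 37.1 reads.

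**Figure D2:**
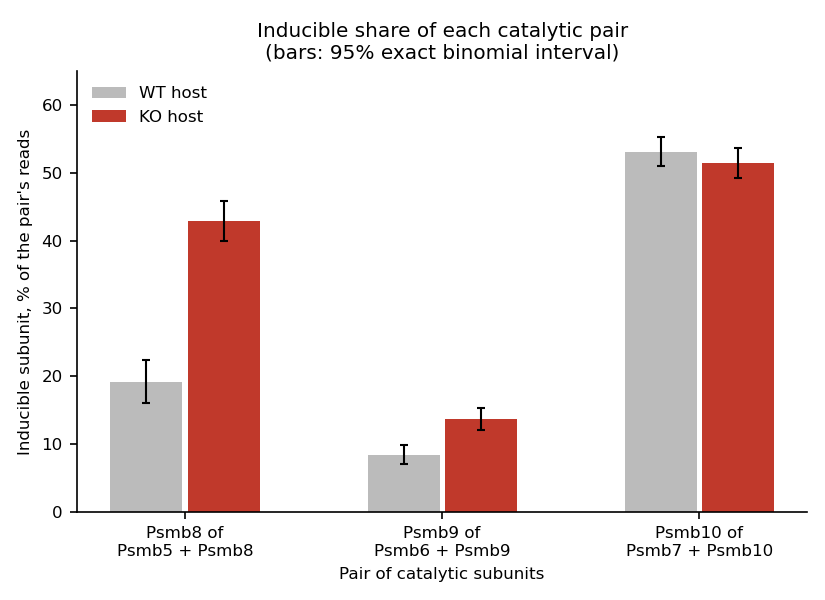
Share of the inducible subunit in the recovered reads of each catalytic pair, in percent, for the WT host (grey) and KO host (red) libraries, with exact binomial 95% intervals that cover counting error only. The Psmb8 share goes from 19.1% to 42.9% and the Psmb9 share from 8.35% to 13.6%, while the Psmb10 share is 53.1% and 51.5%.

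PA28 is a ring of alpha and beta subunits that opens the core and is known to favour the making of class I peptides. Psme1 (PA28 alpha; ENSMUSG00000022216, chromosome 14, 55815580 to 55818987, plus strand) was at FPKM 11.0 and 11.7, with 975 and 935 reads, a ratio of 1.07 (95% interval 0.976 to 1.17). Psme2 (PA28 beta; ENSMUSG00000079197, chromosome 14, 55824898 to 55828571, minus strand) was at FPKM 24.3 and 32.5, with 2325 and 2791 reads, a ratio of 1.34 (95% interval 1.27 to 1.41). The Psme2 to Psme1 ratio was 1.25-fold higher in the KO host (95% interval 1.13 to 1.39, counting error only). With 1 library per host, whether the 2 partners respond differently was not tested.

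Psme2 has a near-identical copy, Psme2b, and the recovered reads of both are fractions, so the split between them is uncertain. Psme2b was listed at 1.5 and 71.2 reads. With the copy added, Psme2 had a ratio of 1.37 (95% interval 1.30 to 1.45). Of the other activators, Psme3 (PA28 gamma, a nuclear cap) had 6519 and 7180 reads, a ratio of 1.23, and Psme4 (PA200, also nuclear) had 10585 and 8474, a ratio of 0.893. The ratio of Psme2 was 1.09 times that of Psme3 (95% interval 1.02 to 1.16).

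The structural subunits of the core went both ways. Of the 7 alpha subunits, which form the gate and outer rings, 5 had a ratio above 1 and 2 below. Psma2 had the highest, 1.60 (572 and 819 reads), followed by Psma1 at 1.44 (3768 and 4859 reads), Psma4 at 1.41 and Psma5 at 1.29, and Psma3 was at 1.02. The span of Psma2 overlaps the listed gene AW209491 over 14.7%. Psma6 (chromosome 12, 55431007 to 55465240) had 498 and 181 reads, 2.47-fold lower in the KO host (95% interval 2.08 to 2.94), and Psma7 (chromosome 2, 179678167 to 179684227) had 126 and 42 reads, 2.69-fold lower (1.88 to 3.91). All 4 beta subunits without an active site were below 1: Psmb4 at 0.774, Psmb2 at 0.811, Psmb1 at 0.948 and Psmb3 at 0.961, of which the intervals of Psmb1 and Psmb3 include 1. For scale, of all 10813 genes with 100 or more reads, 4920 (45.5%) had a ratio above 1 and 5893 below.

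Alpha subunits are present in equal number in each core, but their RNA levels were far from equal here. Per transcript length they ran from 5.29 RPM per kilobase for Psma7 to 120.3 for Psma1 in the WT host, a 22.8-fold range, and from 1.97 to 173.0 in the KO host, an 88.0-fold range. The recovered reads of Psma6 and Psma7 were whole in both libraries and their spans overlap no other listed gene. How the authors' counting treated reads that also match other places in the genome is not given in the sources used here, and its part in these levels was not tested.

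The 19S subunits among the members changed little as a group. Of these 17 subunits, 10 had a ratio above 1 and 7 below, with a median ratio of 1.09. Over all genes with 100 or more reads, 45.5% were above 1 and the median ratio was 0.957. The cap subunits Adrm1 and Sem1 fall outside the symbol rule and are not among the 17. They were at 2.76 and 0.724. Of the 6 ATPases, which unfold substrates, 3 were above 1. Psmc1 (chromosome 12, 100076413 to 100089665) was the lowest, with 648 and 289 reads, a ratio of 0.497 (95% interval 0.431 to 0.572). Psmc6 had 2027 and 1388 reads (0.763) and Psmc4 533 and 407 (0.851), while Psmc2 had 894 and 967 (1.21) and Psmc5 845 and 981 (1.29). Psmc3, the best expressed ATPase per length, had 4172 and 3964 reads, a ratio of 1.06, and 37.0% of its span overlaps Slc39a13. Of the 11 other subunits, 7 were above 1, and they lay between Psmd4, a ubiquitin receptor, at 0.823 (1701 and 1255 reads) and Psmd11, a lid subunit, at 1.28 (2961 and 3408 reads). Psmd14, the deubiquitinase of the lid, was at 0.921 (1265 and 1045 reads), and Psmd1 and Psmd2, the scaffold of the base, were at 1.19 and 1.15. The lid subunits Psmd6, Psmd13 and Psmd7 were at 1.25, 1.22 and 1.17, and Psmd3 was at 1.09 on 6117 and 5982 reads, while Psmd8 was at 0.926 and Psmd12 at 0.867. Per transcript length the 17 subunits ran from Psmd13 at 11.6 RPM per kilobase to Psmd3 at 109.2 in the WT host, and from Psmc1 at 7.77 to Psmd3 at 119.1 in the KO host.

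Of the genes named Psmd, 3 encode assembly chaperones of the cap rather than subunits, and their ratios lay on both sides of 1. Psmd9 (chromosome 5, 123307476 to 123388195) had 308 and 587 reads, a ratio of 2.12 (95% interval 1.85 to 2.45), Psmd5 had 2005 and 1252, a ratio of 0.696 (0.648 to 0.748), and Psmd10 had 260 and 212, a ratio of 0.909 with an interval that includes 1. Summed over all 42 members, proteasome RNA was 3024 RPM in the WT host and 3232 RPM in the KO host, 1.07 times as much. The 3 inducible catalytic subunits were a small portion of that sum, at 53.8 and 75.3 RPM, while the 3 constitutive ones hold 112.1 and 133.4 RPM.

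**Figure D3:**
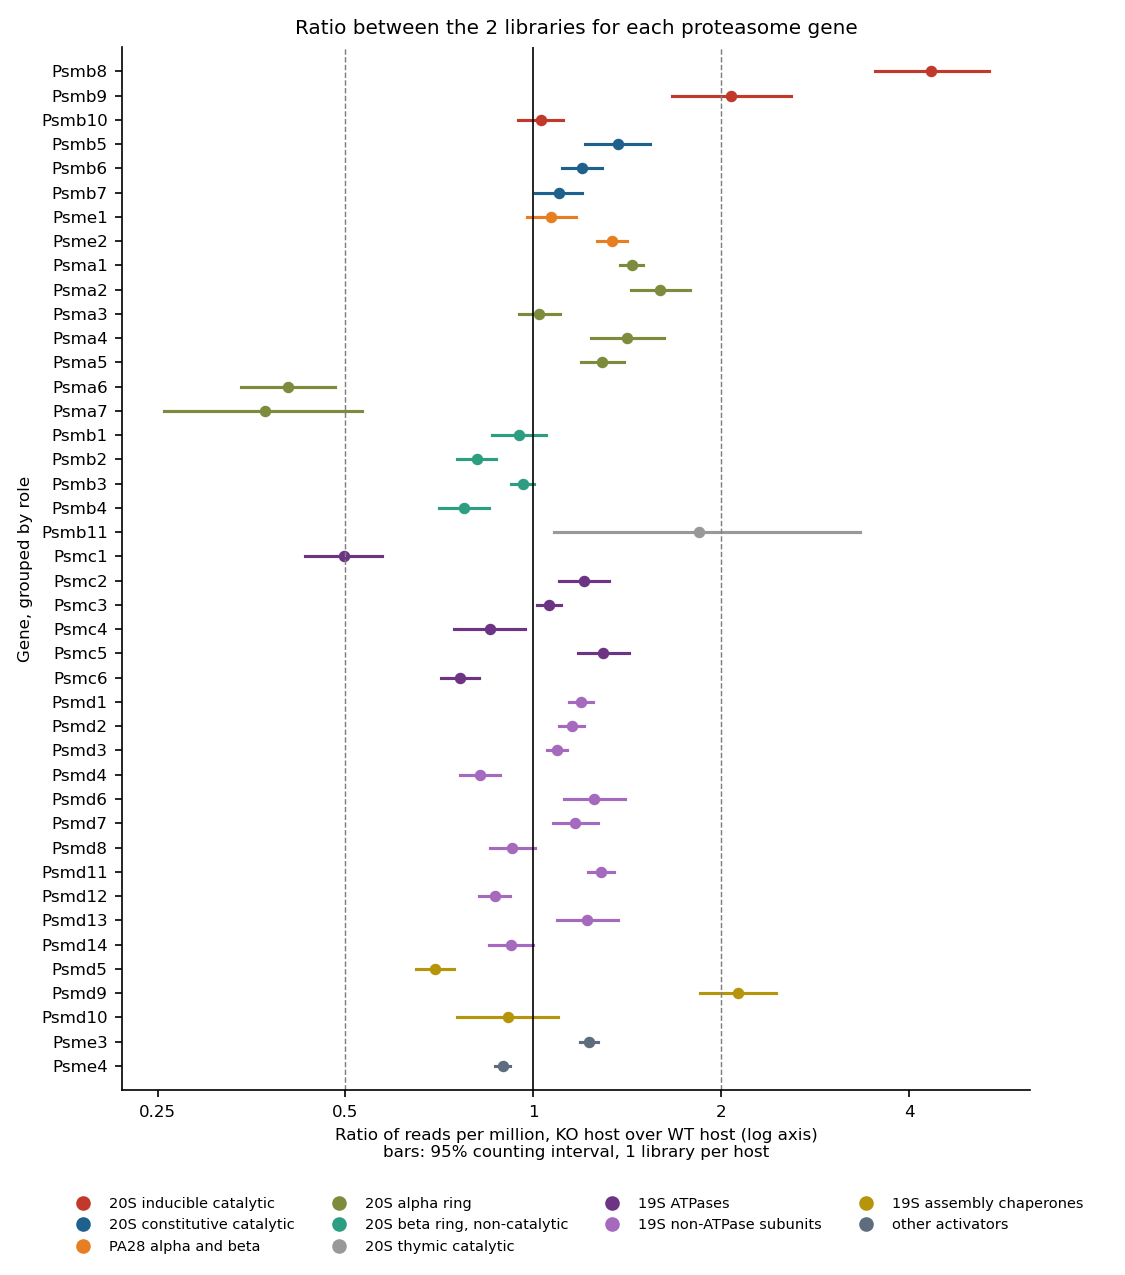
Ratio of RPM, KO host over WT host, for each of the 42 proteasome genes (log axis), with bars for the 95% counting interval and dashed lines at 2-fold. Psmb8 at 4.34 lies farthest right, Psmb9 and Psmd9 lie just past 2, Psma6 and Psma7 lie at 0.405 and 0.372, and most subunits lie near 1.

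Over all read depths, the share of members past the size thresholds was near or below that of all genes. On the deposited scale, 35 members had values averaging at least 1, and 1 of them, Psmb8, was higher by 1 or more (2.86%), where 2.31% of all 6057 such genes were, and 0 members were lower by that much, where 2.64% of genes were. In reads, 3 of the 41 members with 100 or more reads over both libraries were at least 2-fold higher, Psmb8, Psmb9 and Psmd9 (7.32%), against 8.9% of 10813 genes. Another 3 were at least 2-fold lower, Psma6, Psma7 and Psmc1 (7.32%), against 12.0%. The median ratio was 1.09 over these 41 members and 0.957 over all genes, and 61.0% of the members were above 1, against 45.5% of all genes.

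The 2-fold members were among the thinly covered ones. All 6 had under 1000 reads over both libraries, a limit chosen after the values were seen. Among the 4200 genes with 100 to under 1000 reads, 18.4% were at least 2-fold higher and 24.8% at least 2-fold lower, and 9 members fall there, of which 3 were higher and 3 lower by that much (33.3% each). Psmb8 stands farther out than the others: 7.07% of those genes had a ratio as high, against 17.6% for Psmb9 and 17.1% for Psmd9, and 17.0% and 24.6% had one as low as Psma7 and Psmc1, with Psma6 between them. Among the 6613 genes with 1000 or more reads, 2.84% were at least 2-fold higher and 3.92% lower, and of the 32 members there 0 were either, with ratios from 0.696 (Psmd5) to 1.60 (Psma2).

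**Figure D4:**
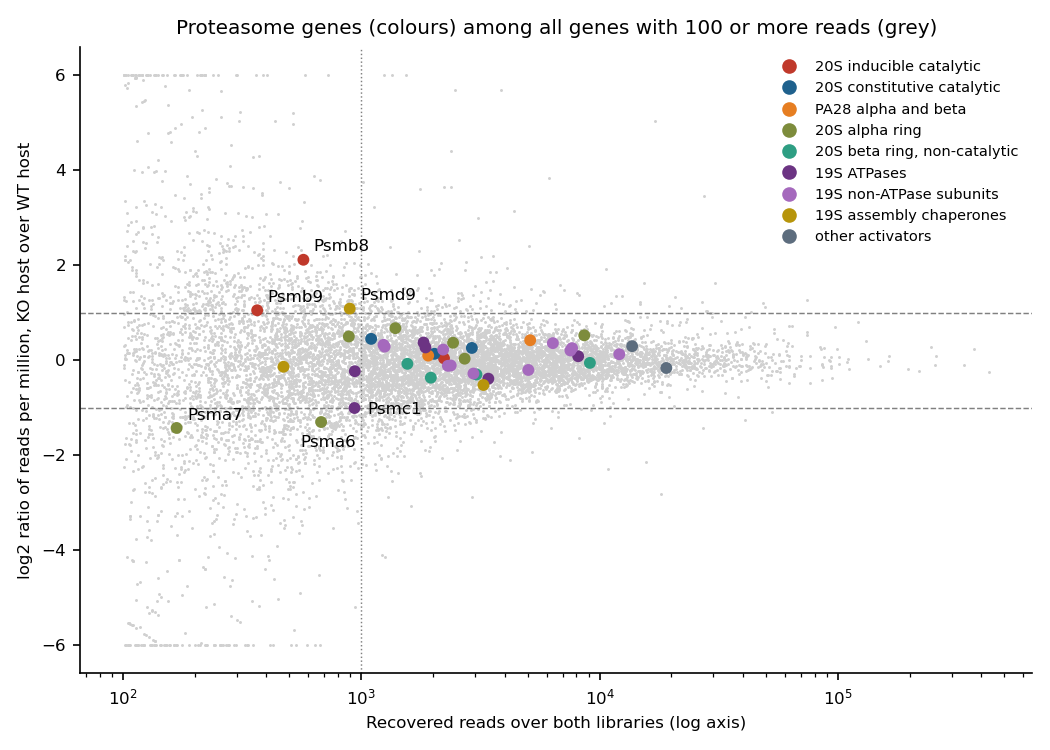
log2 ratio of RPM (KO host over WT host) against the reads over both libraries (log axis), with 10670 genes in grey and the 41 proteasome genes with 100 or more reads in colour. 124 genes are drawn at the limit of 6, 143 genes listed at 0 in 1 library are left out, dashed lines mark 2-fold and the dotted line 1000 reads; all 6 labelled genes lie left of it, where the grey cloud is widest.

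Genes that assemble, regulate or supply the proteasome were examined as a list of 32, of which 31 were in the table. On the read scale, 8.9% of all genes with 100 or more reads were at least 2-fold higher and 12.0% lower. In this list 1 was at least 2-fold higher and 0 were at least 2-fold lower, with a median log2 ratio of -0.09. The exception was Adrm1, a ubiquitin receptor of the 19S cap, with 90.0 and 222.7 reads, a ratio of 2.76 (95% interval 2.15 to 3.57). The chaperones of the core went both ways. Psmg2 was the lowest of the list, with 580 and 278 reads (0.534), while its partner Psmg1 had 219 and 348 reads, a ratio of 1.77 (95% interval 1.49 to 2.11), and Psmg3 and Psmg4 were both at 1.41. Pomp, the chaperone needed to mature new cores, had 648.7 and 363.2 reads, a ratio of 0.624 (95% interval 0.547 to 0.710). Nfe2l1, which drives the constitutive genes, was at 1.02, Akirin2, which carries proteasomes into the nucleus, at 0.643, and Usp14, a deubiquitinase bound to the cap, at 0.713.

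The interferon gamma pathway, which is known to induce the immunoproteasome, was examined as a list of 13 signalling and class I presentation genes, all in the table. Of these, 6 were at least 2-fold higher and 1 was at least 2-fold lower, with a median log2 ratio of 0.85. Over all genes with 100 or more reads, 8.9% were at least 2-fold higher and 12.0% lower. With 1000 or more reads the shares were 2.84% and 3.92%. Nlrc5, the activator of class I genes, had 916 and 3160 reads, a ratio of 3.85 (95% interval 3.57 to 4.14), and Irf1, a transcription factor induced by interferon gamma, was at 2.20. The class I heavy chains H2-K1 and H2-D1 were at 2.52 and 2.06, and Tap1 and Tap2 are given above. The lower gene was Ifngr2, a chain of the interferon gamma receptor, with 875 and 295 reads, a ratio of 0.376. On this scale Psmb8 lies above Nlrc5 with an overlapping interval, Psmb9 between H2-D1 and Irf1 with an interval that covers both, and Psme2, Psme1 and Psmb10 below every one of the 6 higher genes.

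Leukocytes carry the immunoproteasome without induction, so their markers are given beside these results. Of 10 leukocyte markers, 9 were listed and together held 20.5 RPM in the WT host and 23.6 RPM in the KO host. Ptprc, which encodes CD45 itself, had 46 and 64 reads, and Fcer1g had 31 and 70, a ratio of 2.52 (95% interval 1.63 to 3.98). Lcp1 had 232 and 197 reads (0.947), Laptm5 56 and 45 (0.896), Cd53 90 and 85 (1.05) and Rac2 45 and 48.1 (1.19). Tyrobp had 21 and 23 reads, Coro1a 9 and 8, and Spi1 4 and 12. The median log2 ratio of the leukocyte markers with 100 or more reads over both libraries was 0.07. Of 10 macrophage and dendritic cell markers, 8 were listed, at 174.1 and 220.2 RPM. Of the 7 with 100 or more reads over both libraries, 3 were at least 2-fold higher and 1 at least 2-fold lower. The higher ones were Mpeg1 (378 and 952 reads), H2-Ab1 (23 and 262) and Cd68 (33 and 70). The lower one was Itgam (237 and 25). Lyz2 had 3504 and 3471 reads, Csf1r 198 and 195, and Adgre1 157 and 153. Cd74, with under 100 reads, had 9 and 21. Of 8 T and NK cell markers 2 were listed, Cd4 with 19 and 1 reads and Cd8a with 6.8 and 53. None of the listed markers was at 0 in either library. Of 7 fibroblast and pericyte markers 6 were listed, at 1310 and 432.2 RPM, and 4 of them were at least 2-fold lower in the KO host: Col1a1 (16111 and 2059 reads), Pdgfrb, Dcn and Acta2. For scale with these marker counts, 8.9% of all genes with 100 or more reads were at least 2-fold higher and 12.0% lower. The shares were 18.4% and 24.8% with 100 to under 1000 reads, and 2.84% and 3.92% with 1000 or more. Col1a2 was at a ratio of 0.652, and Pdgfra had 5834 and 5056 reads, a ratio of 0.966 with an interval that includes 1. The 3 listed endothelial markers held 18.3 and 14.2 RPM, and within them Plvap had 348 and 58 reads and Cdh5 1 and 146. Markers of these lists that were not listed were not analysed here. The part of other cell types in the Psmb8 and Psmb9 values was not tested.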

How the data were processed

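The authors deposited 1 table of log2(FPKM + 1) values with 1 column per library. STAR 2.7.8a, Partek and mm39 are listed, without roles, in the submitters' processing notes. The sources used here do not give the annotation release, the strand setting or how reads with several matches were counted. FPKM used the genomic span of each gene, since FPKM multiplied by the length column (stop minus start in 100% of rows) sums to 1000000 in each library. The value of 1 read was found from the low values, and this step was tested on simulated data. Below 1000 reads, 84.9% (WT host) and 83.4% (KO host) of values were whole within 0.1 read. Of the 42 members, 35 were whole in both libraries; the others, Psmb5, Psmb7, Psmb11, Psmc2, Psmc3, Psmd11 and Psme2, had fractional values in at least 1 library, and 7 members overlap another listed gene. Counting intervals used reads rounded to whole numbers (scipy 1.17.1, Python 3.11.15). Transcript lengths were taken by Ensembl ID from GENCODE M21 (GRCm38) and used as lengths only. A difference of 1 in log2(FPKM + 1), with a mean of 1 or more, or a 2-fold ratio with 100 or more reads, was counted. All members may be named; pathway genes are named when past 2-fold, highest, lowest, or known for a role in the text, the last after their values were seen. The members and lists were chosen with earlier results of these data known. An item of the pathway list and a motif were left out after the values were seen and are not reported here.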

Additional observations from a re-analysis of the deposited data

How the results depend on the processing

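With 1 library per host there is no replicate to leave out. No paired analysis was possible because each host genotype had 1 library. The added constant mattered most, since Psmb8 and Psmb9 have low FPKM. The count of members higher by 1 or more, 1 as reported, was 0 with 5 added and 3 in recovered reads (RPM), and the count of lower members, 0 as reported, was 3 in recovered reads. That setting also used the filter of 100 reads in place of the mean of 1, and Psmd9, Psma6 and Psma7 pass only the former. The median log2 difference of the inducible catalytic subunits, 0.58, was 0.97 with 0.1 added, 0.21 with 5 added and 1.05 in reads. The Psmb8 over Psmb5 difference, 1.11, was 1.59, 0.48 and 1.67 under the same settings. The Psmb9 over Psmb6 difference, 0.33, was 0.71, -0.0040 and 0.79, so with 5 added it vanished. Leaving out the low-value filter, centring on the median gene (-0.03), quantile normalization and leaving out genes with a fractional value under 1000 reads moved none of the values above beyond its counting interval. For Psmb8 over Psmb5 the last setting gave no value, since Psmb5 has such a value. For the constitutive catalytic median it left only 1 gene, Psmb6, of the 2 in the main run. It kept Psmb7, Psme2, Psmc3 and Psmd11, whose fractional values are larger, so it is no check of shared reads for the PA28 median or the Psmb10 pair. The medians of the constitutive catalytic subunits (0.31), PA28 (0.25), 19S (0.15) and structural 20S subunits (-0.01), and the Psmb10 over Psmb7 difference (-0.02), stayed within their counting intervals under the settings run; of these the structural median turned to 0.02 when centred and 0.03 under quantile normalization, and the Psmb10 pair to 0.01 with 5 added. For single genes, all 42 kept 1 sign under every setting. Only centring and quantile normalization could have changed a sign, since the other settings cannot reverse the order of 2 values of 1 gene. Of 291 single-gene values, 34 moved beyond the counting interval.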
